A study of Mus musculus with 4 samples.

Results

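A set of 10 genes of the adipogenic programme, which TGF-beta signalling is known to block, was followed through the RNA-seq libraries of mouse embryonic fibroblasts (MEF). They were the transcription factors *Pparg*, *Cebpa*, *Cebpb*, *Cebpd* and *Klf15* and the lipid handling genes *Fabp4*, *Lpl*, *Adipoq*, *Cd36* and *Plin2*. All 10 were in the deposited table, with 23 transcripts, among 20804 protein-coding genes that have a transcript there. The transcript with the longest gene body stood for each gene. Of the 10 members, 9 had more than 3 reads in at least 1 library and 7 reached 1 RPKM (reads scaled by transcript length and library depth) in at least 1 library. *Adipoq* did not pass the first limit, and *Cebpa*, *Cd36* and *Adipoq* did not pass the second. *Pparg* and *Lpl* reached 1 RPKM in the *Hmga2*-/- Ctrl library only.

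The MEF were taken at embryonic day 15.5 from wild-type (*Hmga2*+/+) or *Hmga2*-deficient (*Hmga2*-/-) C57BL/6 embryos and were immortalised with SV40, which all groups share. Cells of each genotype came from different embryos, so a difference between genotypes cannot be told apart from a difference between cell lines. HMGA2 is a chromatin protein that binds AT-rich DNA. After overnight starvation in medium with 1% serum, the cells were kept for 24 h with water (Ctrl) or with human recombinant TGFB1 at 10 ng/ml. Libraries of total RNA kept the strand, with 1 library for each of the 4 conditions, so every difference compares libraries, has no replicate check and carries no p-value. The labels name no adipogenic cocktail, so the values are those of fibroblasts.

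As background, fat cells form in a cascade. The C/EBP factors CEBPB and CEBPD are made early and turn on *Pparg* and *Cebpa*, whose proteins maintain each other and switch on the genes of lipid uptake and storage. PPARG is the nuclear receptor without which fat cells do not form, and KLF15 is a Krüppel-like factor that promotes the programme. TGF-beta acts through SMAD proteins, and SMAD3 is known to bind C/EBP proteins and to lower their activity at the *Pparg* gene.

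Depth derived from the steps between low RPKM values was similar in the libraries, from 56140000 to 57300000 mapped reads. No read of *Hmga2* was found in either *Hmga2*-/- library, and its level was 14.8 RPKM in *Hmga2*+/+ Ctrl and 40.7 RPKM in *Hmga2*+/+ TGFB1. The TGFB1 targets *Smad7* and *Ccn2* were both at least 1.5-fold higher after TGFB1 in both genotypes. The 6 fibroblast markers (*Col1a1*, *Col1a2*, *Vim*, *Pdgfra*, *Pdgfrb* and *Thy1*) summed to between 1579 and 2018 RPKM. The 5 markers of mature fat cells (*Adipoq*, *Plin1*, *Cidec*, *Lep* and *Retn*) had 3 reads or fewer in every library, and the first 4 of them had 0 reads throughout. Of the endothelial markers, *Pecam1*, *Cdh5* and *Emcn* were at 0.048 RPKM or less in every library, whereas *Tek* and *Kdr*, both receptor tyrosine kinases, were detected. Macrophage markers summed to 1.29 to 1.66 RPKM, nearly all of it *Cd68*, with *Tyrobp* at 0 reads. Of the skeletal muscle markers, *Myod1*, *Myog* and *Ckm* had 0 reads, and *Actn2* had 13 to 26 reads (0.078 to 0.155 RPKM). The epithelial markers *Epcam*, *Cdh1*, *Krt8* and *Krt18* summed to 0.403 to 1.04 RPKM, with *Epcam* highest at 0.667 RPKM (78 reads) in *Hmga2*+/+ TGFB1. In bulk RNA, fewer cells that express a gene and less RNA per cell cannot be told apart.

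Promoter sequences were set beside 4 members, since *Pparg* and *Klf15* were called lower after TGFB1 in both genotypes, while *Cebpb* was called higher and *Plin2* was under the 1.5-fold limit with values above 0. RefSeq (GRCm38.p6, the coordinates of mm10) held windows for 7 of the 10 members. *Cebpd*, *Fabp4* and *Lpl* had no entry. *Pparg* had 3 windows, of which only 1 is printed. The 250 bases before the start are printed on the strand of the gene. They are chr6:115421816-115422065 (plus strand) for the inner start of *Pparg*, from which the adipocyte form of the receptor is made, chr6:90462326-90462575 (plus) for *Klf15*, chr2:167688665-167688914 (plus) for *Cebpb* and chr4:86670060-86670309 (minus) for *Plin2*. Capitals mark matches on either strand to the SMAD box CAGAC, the AP-1 site TGANTCA, the C/EBP core TTGCNNAA and the E-box CACGTG, where N is any base.
Pparg: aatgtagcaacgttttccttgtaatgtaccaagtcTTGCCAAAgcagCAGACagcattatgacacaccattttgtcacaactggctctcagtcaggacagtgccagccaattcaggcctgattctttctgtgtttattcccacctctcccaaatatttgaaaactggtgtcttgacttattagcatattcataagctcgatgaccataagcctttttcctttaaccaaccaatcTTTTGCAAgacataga
Klf15: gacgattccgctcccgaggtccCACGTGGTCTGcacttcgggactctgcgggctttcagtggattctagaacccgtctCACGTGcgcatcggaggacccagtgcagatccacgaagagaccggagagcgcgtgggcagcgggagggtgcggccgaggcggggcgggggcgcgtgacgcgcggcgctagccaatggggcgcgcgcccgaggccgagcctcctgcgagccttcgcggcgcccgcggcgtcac
Cebpb: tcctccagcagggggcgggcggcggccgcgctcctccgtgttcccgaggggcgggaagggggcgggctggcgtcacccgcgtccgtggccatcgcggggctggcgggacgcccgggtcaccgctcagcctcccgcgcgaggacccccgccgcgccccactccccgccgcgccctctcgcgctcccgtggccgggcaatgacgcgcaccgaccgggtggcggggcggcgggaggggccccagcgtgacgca
Plin2: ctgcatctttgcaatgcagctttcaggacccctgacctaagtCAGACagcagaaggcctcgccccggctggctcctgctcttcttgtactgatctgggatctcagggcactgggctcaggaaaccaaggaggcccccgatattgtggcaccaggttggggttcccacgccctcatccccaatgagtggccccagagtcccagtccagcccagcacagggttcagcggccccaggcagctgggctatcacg
The *Pparg* window held 2 matches to the C/EBP core and 1 SMAD box. At least 1 C/EBP core was found in 9.56% of the 32851 RefSeq windows of this length, and at least 1 SMAD box in 42.2%. The share with 2 matches was not computed. In *Klf15* there were 2 E-boxes (at least 1 in 6.02% of windows), the first of which is directly followed by a SMAD box in reverse. *Plin2* had 1 SMAD box. None of these letters occurred in the *Cebpb* window, and the AP-1 site, found in 6.75% of windows, was in none of the 4. Base composition set the windows apart as well, with 40.8% G and C in *Pparg*, 61.6% in *Plin2*, 72.0% in *Klf15* and 81.6% in *Cebpb*. No marked motif overlaps another. A match is a description of the letters and not a measured binding site.

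The members were expressed over a wide range, and the order of their levels was led by the early factors. In the *Hmga2*+/+ Ctrl library *Cebpb* had 25.7 RPKM, *Plin2*, which codes for a coat protein of lipid droplets in many cell types, had 10.7 RPKM, and *Cebpd* had 6.95 RPKM. Then came *Fabp4*, the fatty acid carrier of fat cells, with 1.97 RPKM and *Klf15* with 1.02 RPKM. *Cebpa* (0.56 RPKM), *Lpl* (0.517 RPKM) and *Pparg* (0.489 RPKM) followed, and these neighbours were not separated by their counting intervals. *Cd36*, a fatty acid translocase, had 0.025 RPKM from 5 reads and was not separated from *Adipoq*, which encodes the fat cell hormone adiponectin and had 0 reads in every library, where 3 reads would have been 0.0427 to 0.0436 RPKM. *Cebpb*, *Plin2*, *Cebpd* and *Fabp4* kept the first 4 places in all 4 libraries, although *Fabp4* (0.914 RPKM) and *Cebpa* (0.712 RPKM) were not separated in *Hmga2*-/- TGFB1. In the *Hmga2*-/- Ctrl library *Pparg* (1.15 RPKM) stood above *Lpl* (1.03 RPKM) and *Klf15* (0.988 RPKM), 3 neighbours that were not separated, and *Cebpa* (0.408 RPKM) was below them. After TGFB1 *Pparg* took the last place among the members with more than 10 reads in both genotypes, without separation from *Lpl* (0.126 RPKM) in *Hmga2*+/+ and from *Klf15* (0.315 RPKM) in *Hmga2*-/- MEF.

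**Figure D1:**
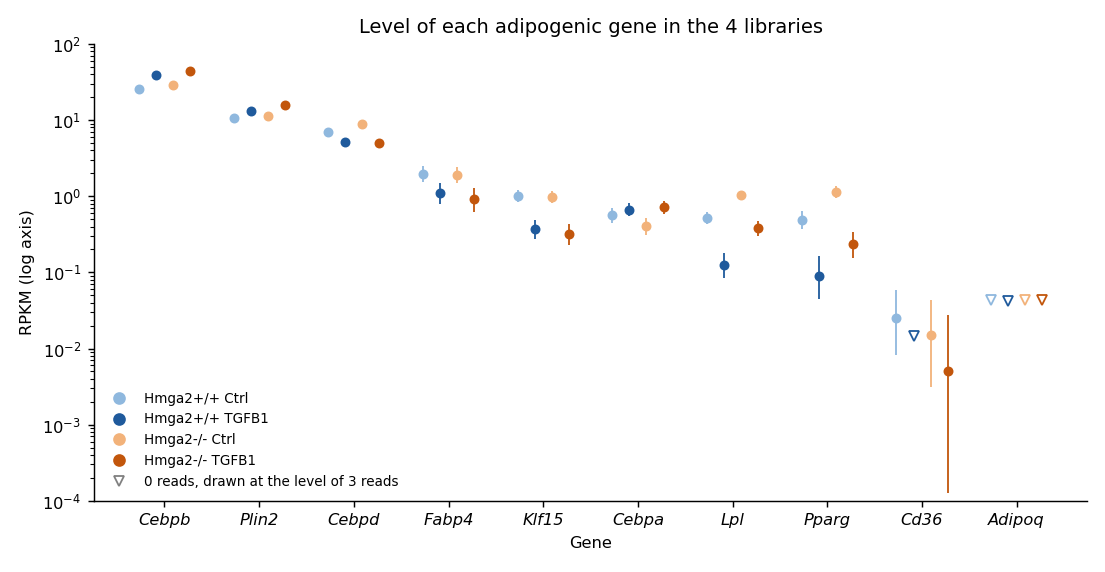
Level of each of the 10 genes in RPKM on a log axis, with 1 point per library and lines for the 95% exact Poisson interval, which covers counting error only. Genes are ordered by their mean level, from *Cebpb* at 25.7 to 43.5 RPKM down to *Adipoq* with 0 reads, and *Pparg*, *Lpl* and *Klf15* have their lower points in the TGFB1 libraries.

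The first question was which members differed after TGFB1 in *Hmga2*+/+ MEF. *Pparg*, *Lpl*, *Klf15* and *Fabp4* were lower by 1.79-fold to 5.37-fold, *Cebpb* was 1.51-fold higher, and *Cebpd*, *Cebpa* and *Plin2* stayed under 1.5-fold, the limit used by the study. For *Cd36*, with 5 and 0 reads, the level was at least 1.69-fold lower when 0 was replaced by a floor of 3 reads. So 5 members were called lower, 1 higher, 3 were under the limit and 1, *Adipoq*, could not be compared. Of 10737 protein-coding genes with at least 1 RPKM in 1 library, 16.8% were called lower and 11.4% higher, and the median log2 change was -0.05. With every gene that had more than 3 reads in 1 of the compared libraries, the limit that the members themselves had to pass, 23.3% were called lower and 13.3% higher. The median over the 9 members compared was -0.76, which is the bound of *Cd36* itself and so rests on the floor of 3 reads.

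The receptor gene *Pparg* had 0.489 RPKM from 58 reads in the *Hmga2*+/+ Ctrl library and 0.091 RPKM from 11 reads in the TGFB1 library. In *Hmga2*-/- MEF it had 1.15 RPKM from 137 reads and 0.233 RPKM from 28 reads. Both TGFB1 libraries were thus below both Ctrl libraries. The log2 change after TGFB1 was -2.43 in *Hmga2*+/+ (95% exact interval from counting error -3.51 to -1.48), a 5.37-fold lower level. The gene lies on the plus strand of chromosome 6 (mm10), where the transcript reported runs from 115360951 to 115490401. Its 5 transcripts in the table, which overlap and can share reads, had log2 changes from -2.97 to -2.29 in *Hmga2*+/+ and from -2.69 to -2.30 in *Hmga2*-/- MEF. Among them, the transcript that starts next to the printed window had 0.487 and 0.099 RPKM in *Hmga2*+/+ and 1.23 and 0.250 RPKM in *Hmga2*-/- MEF.

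*Lpl* codes for lipoprotein lipase, which frees fatty acids from circulating lipoproteins. Its level was 0.517 RPKM (117 reads) in the *Hmga2*+/+ Ctrl and 0.126 RPKM (29 reads) in the *Hmga2*+/+ TGFB1 library. In the *Hmga2*-/- libraries it was 1.03 RPKM (235 reads) and 0.379 RPKM (87 reads). As for *Pparg*, the highest level was in *Hmga2*-/- Ctrl and the lowest in *Hmga2*+/+ TGFB1. The log2 change in *Hmga2*+/+ MEF was -2.04 (interval -2.68 to -1.45), a 4.10-fold lower level. The 4 transcripts on chromosome 8 (68880555 to 68906932 for the one reported, plus strand) were all lower, by log2 changes from -3.72 to -1.44, where the largest rests on 13 and 1 reads.

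*Klf15* had 1.02 RPKM (131 reads) and 0.374 RPKM (49 reads) in *Hmga2*+/+ Ctrl and TGFB1 and 0.988 RPKM (128 reads) and 0.315 RPKM (41 reads) in *Hmga2*-/- Ctrl and TGFB1. The TGFB1 libraries were below the Ctrl libraries, and the genotypes lay close to each other under each treatment. The log2 change in *Hmga2*+/+ MEF was -1.45 (interval -1.95 to -0.96). The 3 transcripts on the plus strand of chromosome 6 (90462626 to 90475209 for the one reported) had values between -1.45 and -1.42.

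*Fabp4* is a classic target of PPARG. It had 1.97 RPKM from 70 reads and 1.10 RPKM from 40 reads in *Hmga2*+/+ MEF and 1.92 RPKM from 69 reads and 0.914 RPKM from 33 reads in *Hmga2*-/- MEF. Here too both TGFB1 libraries lay below both Ctrl libraries. The log2 change of -0.84 in *Hmga2*+/+ had an interval from -1.44 to -0.26, which leaves out 0 but includes changes under 1.5-fold. Its transcript lies on the minus strand of chromosome 3 (10204343 to 10208576).

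The 3 C/EBP members did not share a direction. Their transcripts lie on the plus strand, *Cebpb* on chromosome 2 (167688915 to 167690432), *Cebpd* on chromosome 16 (15887286 to 15889545) and *Cebpa* on chromosome 7 (35119293 to 35121931). *Cebpb* was at 25.7 RPKM (2191 reads) and 38.8 RPKM (3374 reads) in *Hmga2*+/+ and at 28.9 RPKM (2481 reads) and 43.5 RPKM (3759 reads) in *Hmga2*-/- MEF. Both TGFB1 libraries were above both Ctrl libraries. In each genotype the log2 change was 0.59 (0.52 to 0.67 in *Hmga2*+/+, 0.52 to 0.66 in *Hmga2*-/-), which is just past the limit of 1.5-fold. With libraries rescaled by the median ratio it was 0.56 in *Hmga2*-/- MEF and was no longer called. *Cebpd* went the other way, with 6.95 RPKM (882 reads) before and 5.21 RPKM (674 reads) after TGFB1 in *Hmga2*+/+ and 9.01 RPKM (1152 reads) before and 5.05 RPKM (649 reads) after it in *Hmga2*-/- MEF. Its log2 change was -0.42 in *Hmga2*+/+ (-0.56 to -0.27), under the limit, and -0.84 in *Hmga2*-/- (-0.98 to -0.70). The levels after TGFB1 were alike in the genotypes, while the Ctrl levels differed. *Cebpa* had few reads, with 0.56 RPKM (83 reads) and 0.668 RPKM (101 reads) in *Hmga2*+/+ and 0.408 RPKM (61 reads) and 0.712 RPKM (107 reads) in *Hmga2*-/- MEF. Its log2 change was 0.25 in *Hmga2*+/+ (-0.18 to 0.69), not detectable at this depth, and 0.80 in *Hmga2*-/- (0.34 to 1.28).

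Because the levels are per length, the C/EBP factors can be set against *Pparg* and *Cebpa* in each library. The level of *Cebpb* was 52.6-fold that of *Pparg* in *Hmga2*+/+ Ctrl and 427-fold in *Hmga2*+/+ TGFB1, and 25.2-fold and 187-fold in *Hmga2*-/- Ctrl and TGFB1. Over *Cebpa* it was 45.9-fold and 58.1-fold in *Hmga2*+/+ and 70.8-fold and 61.1-fold in *Hmga2*-/- MEF. The ratio to *Pparg* thus widened after TGFB1 in both genotypes, whereas that to *Cebpa* lay between 45.9-fold and 70.8-fold. This widening restates the changes of *Pparg* and *Cebpb* given above. The 427-fold ratio rests on 11 reads of *Pparg* and the 187-fold ratio on 28, and no interval was computed for these ratios. The level of *Cebpd* over *Cebpa* was lower after TGFB1, at 12.4-fold and 7.79-fold in *Hmga2*+/+ and at 22.1-fold and 7.09-fold in *Hmga2*-/- MEF.

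Of the other lipid genes, *Plin2* was well expressed and *Cd36* was near the limit of detection. *Plin2* had 10.7 RPKM (1128 reads) and 13.2 RPKM (1418 reads) in *Hmga2*+/+ and 11.2 RPKM (1191 reads) and 15.8 RPKM (1689 reads) in *Hmga2*-/- MEF. Its log2 changes of 0.30 (0.19 to 0.41) and 0.50 (0.39 to 0.60) had counting intervals wholly above 0 and were under the 1.5-fold limit. *Cd36* had 5 reads in *Hmga2*+/+ Ctrl, 0 in *Hmga2*+/+ TGFB1, 3 in *Hmga2*-/- Ctrl and 1 in *Hmga2*-/- TGFB1. The upper end of its interval in *Hmga2*+/+ was 0.10, so no change is within counting error. In the *Hmga2*-/- libraries *Cd36* had too few reads for a comparison. *Plin2* lies on the minus strand of chromosome 4 (86656565 to 86670059), *Cd36* on the minus strand of chromosome 5 (17781690 to 17888959) and *Adipoq* on the plus strand of chromosome 16 (23146536 to 23157968).

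In *Hmga2*-/- MEF the question was whether TGFB1 gave the same changes without HMGA2. *Pparg* was 4.92-fold lower (log2 -2.30, interval -2.94 to -1.70), *Klf15* 3.14-fold lower (-1.65, -2.20 to -1.13), *Lpl* 2.72-fold lower (-1.44, -1.81 to -1.08) and *Fabp4* 2.1-fold lower (-1.07, -1.72 to -0.45). With *Cebpd*, 5 members were called lower, and *Cebpa* and *Cebpb*, 2 members, were called higher, while 1 was under the limit and 2 could not be compared. Of 10734 genes with at least 1 RPKM in 1 library, 15.1% were called lower and 13.1% higher, and with more than 3 reads as the only limit 21.9% and 15.0% were. The median log2 change was -0.96 over the 8 members compared, which leave out *Cd36*, and 0.01 over all genes. All 8 members that could be compared in both genotypes had a change of the same sign in both, and of 10735 genes 86.2% did.

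**Figure D2:**
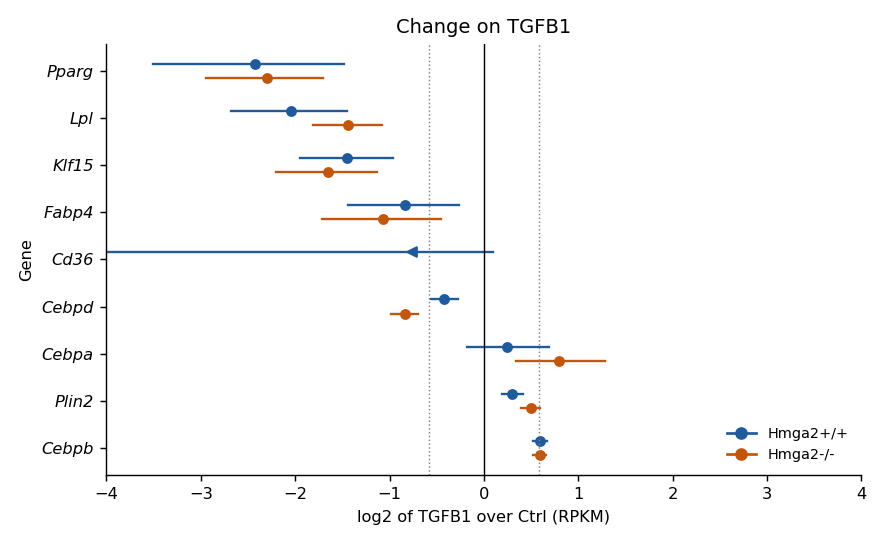
Log2 of the RPKM after TGFB1 over Ctrl for 9 members in *Hmga2*+/+ (blue) and *Hmga2*-/- (orange) MEF, with 95% exact intervals from counting error, a triangle for the bound of *Cd36* (whose line runs past the axis) and dotted lines at 1.5-fold. *Pparg*, *Lpl*, *Klf15* and *Fabp4* lie left of 0 in both genotypes and *Cebpb* lies at 0.59 in both, and *Adipoq* with 0 reads is not drawn.

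**Figure D3:**
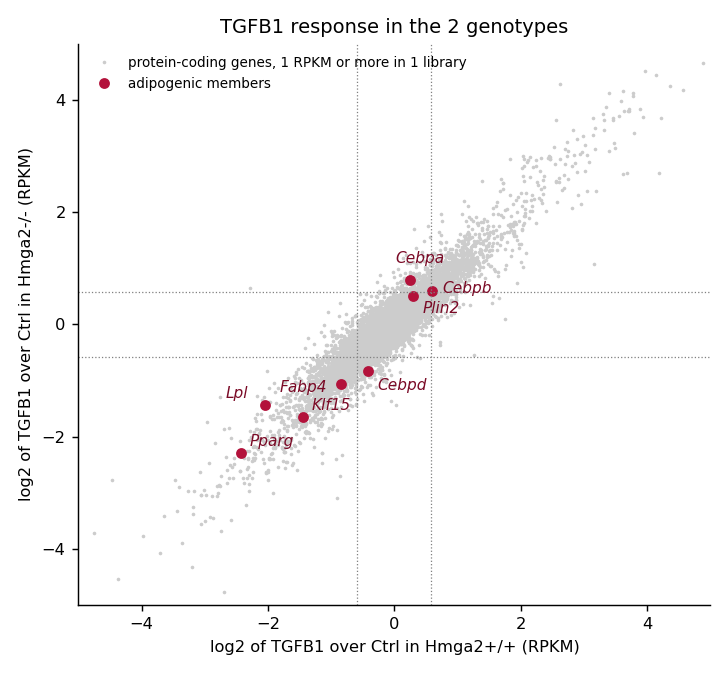
Log2 change after TGFB1 in *Hmga2*+/+ (x axis) against that in *Hmga2*-/- MEF (y axis) for protein-coding genes with at least 1 RPKM in 1 library (grey, 25 genes outside the axes) and for the 8 members compared in both (red), with dotted lines at 1.5-fold. The 8 members have the same sign on both axes, as 86.2% of the genes do, and *Pparg* is the member furthest to the lower left.

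The difference between the responses was computed for each member as the log2 change in *Hmga2*-/- minus that in *Hmga2*+/+ MEF, with an exact interval from the 4 read counts. This interval left out 0 for *Cebpd* and *Plin2*, both with at least 649 reads in every library. It narrows as reads increase, and the share of all genes whose interval leaves out 0 was not computed. For *Cebpd* the difference was -0.42 (-0.62 to -0.21), a larger negative change in *Hmga2*-/- MEF, and for *Plin2* it was 0.19 (0.04 to 0.35). *Lpl* had the largest difference, 0.59 (-0.11 to 1.34), which was the 1 member past 1.5-fold, and its interval included 0. Of all genes with more than 3 reads in 1 library of each response, 7.08% were past 1.5-fold in this direction and 6.08% in the other, and of the 10734 with at least 1 RPKM 2.07% and 1.45% were. The *Lpl* value was -0.25 with the transcript of the highest mean RPKM and -0.13 with a pseudocount of 1 RPKM, so its direction was not fixed. *Cebpa* had 0.55 (-0.10 to 1.20). For *Pparg* (0.13, -1.04 to 1.38), *Klf15* (-0.20, -0.94 to 0.53), *Fabp4* (-0.24, -1.11 to 0.64) and *Cebpb* (0.00, -0.11 to 0.11) the interval was around 0, and only that of *Cebpb* was narrow.

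Genotype, which cannot be told apart from cell line here, was compared next, first in the Ctrl libraries. *Pparg* was 2.34-fold higher in *Hmga2*-/- than in *Hmga2*+/+ MEF (log2 1.23, interval 0.77 to 1.70) and *Lpl* 1.99-fold higher (0.99, 0.67 to 1.33). The 5 *Pparg* transcripts had log2 values from 0.96 to 1.45. Those of the 4 *Lpl* transcripts ran from -0.43 to 1.35, the lowest from 9 against 12 reads. *Cd36* was called lower from 3 and 5 reads (-0.74), with an interval from -3.44 to 1.61 that allows either direction. The 6 others compared were under 1.5-fold, and *Cebpd* (0.37, 0.25 to 0.50) and *Cebpb* (0.17, 0.08 to 0.25) among them had counting intervals wholly above 0. Among all genes with more than 3 reads in 1 of the compared libraries, the limit the members had to pass, 6.50% were called lower and 6.75% higher, and among the 10732 with at least 1 RPKM in 1 library 1.64% and 2.34% were. Both higher members had reached 1 RPKM only through a library of this comparison in which they were high, so that their count is not independent of the limit of 1 RPKM. Neither was called under a pseudocount of 1 RPKM, where the values were 0.53 for *Pparg* and 0.42 for *Lpl*. The medians were 0.07 over the 9 members and -0.02 over all genes. *Klf15* (-0.04, -0.41 to 0.32) and *Fabp4* (-0.03, -0.53 to 0.47) were at the same level in both genotypes within counting error, and *Cebpa* (-0.46, -0.96 to 0.04) and *Plin2* (0.07, -0.05 to 0.19) also had intervals that include 0.

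Under TGFB1 the same 2 members were higher in *Hmga2*-/- MEF. *Lpl* was 3.01-fold higher (log2 1.59, interval 0.97 to 2.25), and *Pparg* 2.56-fold higher (1.36, 0.31 to 2.51) from 28 and 11 reads. Their transcripts had log2 values from 0.44 to 3.17 for *Lpl*, the largest from 9 against 1 reads, and from 1.24 to 1.39 for *Pparg*. The other 6 members compared were under 1.5-fold, and no member was called lower. Of all genes with more than 3 reads 7.96% were called higher and 6.20% lower, and of the 10734 with at least 1 RPKM 3.10% and 1.97% were. With a pseudocount of 1 RPKM neither member was called, with log2 values of 0.29 for *Lpl* and 0.18 for *Pparg*. *Plin2* (0.26, 0.16 to 0.36) and *Cebpb* (0.16, 0.10 to 0.23) were slightly above 0, and *Cebpd* (-0.05, -0.20 to 0.11) was not, unlike in the Ctrl libraries. Even so, the *Hmga2*-/- TGFB1 levels of *Pparg* (0.233 RPKM) and *Lpl* (0.379 RPKM) were below those of the *Hmga2*+/+ Ctrl library (0.489 and 0.517 RPKM). The Ctrl and TGFB1 genotype comparisons share no library with each other, but each shares its libraries with the TGFB1 comparisons above.

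**Figure D4:**
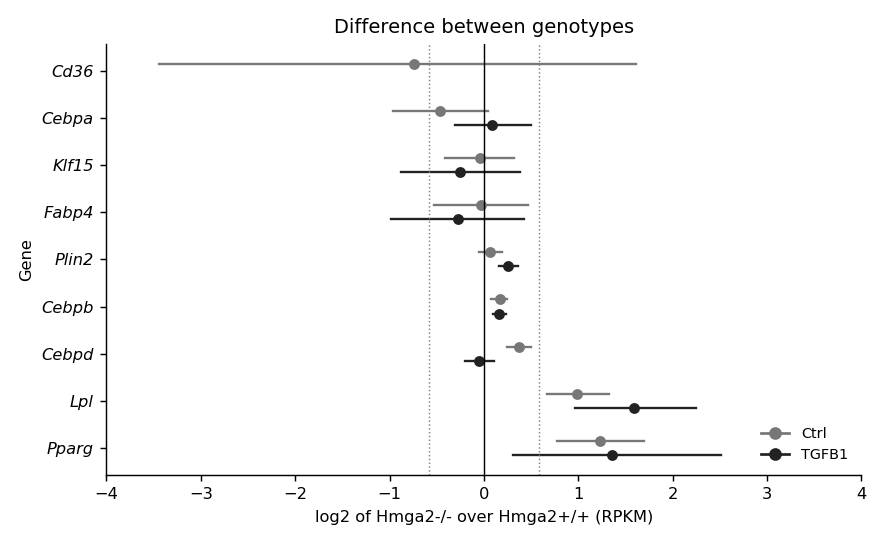
Log2 of the RPKM in *Hmga2*-/- over *Hmga2*+/+ MEF for 9 members in Ctrl (grey) and 8 in TGFB1 libraries (black), with 95% exact intervals from counting error and dotted lines at 1.5-fold. *Pparg* and *Lpl* lie right of the 1.5-fold line under both treatments, and most other members lie near 0.

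*Tek*, one of the endothelial markers, had the same order of libraries as *Pparg*. It had 2.75 RPKM in *Hmga2*+/+ Ctrl, 0.33 RPKM in *Hmga2*+/+ TGFB1, 5.65 RPKM in *Hmga2*-/- Ctrl and 0.686 RPKM in *Hmga2*-/- TGFB1. *Kdr* went up, from 1.11 to 4.46 RPKM and from 1.46 to 7.39 RPKM, and *Pecam1*, *Cdh5* and *Emcn*, which define endothelium, stayed at 0 to 11 reads. Over the 5 endothelial markers the summed level was 3.89 RPKM in *Hmga2*+/+ Ctrl and 8.16 RPKM in *Hmga2*-/- TGFB1. The 6 fibroblast markers did not share a direction. *Thy1* was higher after TGFB1 in both genotypes (log2 0.69 in *Hmga2*+/+ and 1.11 in *Hmga2*-/-), *Pdgfrb* had 0.42 and 0.66, and *Col1a1*, *Col1a2* and *Vim* were under the limit. *Pdgfra*, the PDGF receptor found on fat cell progenitors, was lower after TGFB1, at 24.4 and 11.2 RPKM in *Hmga2*+/+ and 27.1 and 15.3 RPKM in *Hmga2*-/- MEF. The part of these genes in the values of *Pparg* and *Lpl* was not tested.

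Genes with a pattern most like that of a member were found among genes with at least 1 RPKM in 1 library, by the Euclidean distance between centred log2(RPKM + 0.1) values over the 4 libraries. Nearest to *Pparg* were *Efemp1* (distance 0.268), *Cacna1h* (0.356), *AW551984* (0.357), *Sfrp1* (0.362) and *Ppl* (0.375). *Efemp1*, an extracellular matrix glycoprotein, had 5.54 and 1.77 RPKM in *Hmga2*+/+ and 12.0 and 3.90 RPKM in *Hmga2*-/- MEF. *Sfrp1*, a secreted inhibitor of WNT signalling, had 1.60 and 0.376 RPKM and 3.05 and 0.575 RPKM. For *Cebpb*, the member with the highest mean level, the nearest were *Dennd1b* (0.013), *Gss* (0.024), *Abcf2* (0.030), *Abhd11* (0.030) and *Gab2* (0.031). With 4 libraries such likeness is a description. The distances for *Cebpb* and *Pparg* cannot be set against each other, since *Cebpb* changed less and had more reads.

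A further 6 lists of related genes were read beside the members. They were chosen by textbook roles, with earlier results of these data known. A change of 1.5-fold was the limit, and each count below covers genes with more than 3 reads in 1 of the compared libraries, to be read against the shares of all such genes given above. Values in parentheses are log2 changes after TGFB1, in *Hmga2*+/+ first.

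Other transcription regulators that promote fat cell formation moved in both directions. Of 15 genes, 7 were lower and 4 higher after TGFB1 in each genotype, with medians of -0.15 in *Hmga2*+/+ and -0.47 in *Hmga2*-/- MEF on the log2 scale. *Ebf1*, an early factor of the lineage, had 10.3 and 5.11 RPKM in *Hmga2*+/+ and 13.4 and 5.69 RPKM in *Hmga2*-/- MEF. *Rxra*, the partner of PPARG on DNA, was lower by log2 changes of -0.67 and -0.72, and *Stat5a* by -0.99 and -1.0. *Stat5b* was called in *Hmga2*+/+ MEF (-0.69) and had -0.47 in *Hmga2*-/- MEF. Low levels were seen for *Ppargc1a* and *Prdm16*, the coactivator and factor of brown fat, which were under 1 RPKM in every library and had log2 changes of -2.11 and -1.95 and of -1.54 and -1.93. On the other side, *Klf5* (1.14 and 0.75), *Klf9* (1.27 and 1.12) and *Egr2*, also known as Krox20 (1.82 and 2.94), were higher in both genotypes. *Klf4* (0.46 and 0.17), *Srebf1* (0.00 and 0.33) and the glucocorticoid receptor gene *Nr3c1* (-0.15 and -0.14) were under the limit.

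Among the relatives of the member factors, *Cebpg* was higher after TGFB1, at 19.6 against 11.6 RPKM in *Hmga2*+/+ and 20.6 against 12.4 RPKM in *Hmga2*-/- MEF. *Ppard* had log2 changes of -0.14 and -0.12, and *Ddit3*, which codes for the inhibitory C/EBP protein CHOP, had -0.02 and -0.15. *Ppara* was called lower from 41 and 11 reads in *Hmga2*+/+ and 43 and 19 reads in *Hmga2*-/- MEF. Of the 5 genes, 1 was thus lower and 1 higher in each genotype, and *Cebpe* had 1 read in all libraries together.

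Regulators known to oppose fat cell formation were also split. Of 13 genes, 6 were lower and 4 higher in *Hmga2*+/+ MEF, and 5 were lower and 5 higher in *Hmga2*-/- MEF, with medians of -0.56 and -0.47. Lower in both were *Dlk1* (-0.82 and -0.66), the preadipocyte factor Pref-1, *Klf2* (-1.35 and -0.86), *Zfp521* (-0.81 and -1.0), *Tcf7l2* (-0.83 and -1.34) and *Wnt10b* (-0.89 and -0.78). *Gata2* was called in *Hmga2*+/+ MEF (-0.74) and had -0.47 in *Hmga2*-/- MEF. *Foxc2* (1.57 and 2.07), *Hes1* (1.5 and 1.60), *Foxo1* (1.02 and 1.24) and *Gata3* (0.98 and 0.59) were higher in both, and *Sox9* was under the limit in *Hmga2*+/+ (0.56) and higher in *Hmga2*-/- MEF (1.57). *Nr2f2*, the gene with the highest level on this list, had -0.09 and -0.47, and *Smad3* had -0.56 and -0.38.

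Genes of the mature fat cell were often without reads. Of 23 genes 14 had enough reads, and 6 were lower and 1 higher in each genotype, with medians of -0.48 and -0.28. *Plin4*, a lipid droplet coat protein, had 1.29 and 0.313 RPKM in *Hmga2*+/+ and 2.05 and 0.462 RPKM in *Hmga2*-/- MEF. *Plin3* was lower by -0.94 and -0.98, and *Lipe*, which codes for hormone-sensitive lipase, by -1.0 and -0.87. The glucose transporter gene *Slc2a4* was lower at under 1 RPKM (-2.44 and -1.35), and the monoglyceride lipase gene *Mgll* was higher at under 1 RPKM, from 7 to 97 reads in *Hmga2*+/+ and from 9 to 193 reads in *Hmga2*-/- MEF. *Dgat1* was called in *Hmga2*+/+ only (-0.67, against -0.34), and *Acsl1* (-0.66, against -0.51) and *Lmf1*, needed to fold lipoprotein lipase (-0.88, against -0.46), in *Hmga2*-/- only, differences that were not tested. *Fabp5*, a relative of *Fabp4*, had 22.2 and 31.4 RPKM in *Hmga2*+/+ and 26.6 and 31.1 RPKM in *Hmga2*-/- MEF, and *Lpin1* (-0.24 and -0.13), *Pnpla2* (-0.10 and -0.22) and *Agpat2* (-0.16 and -0.10) were under the limit.

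PPAR target genes that other tissues share mostly did not follow *Pparg*. Of 7 genes 6 had enough reads. In *Hmga2*+/+ MEF 1 was lower, *Pdk4* (-0.87), and in *Hmga2*-/- MEF 1 was higher, *Ucp2* (1.17), and the median was -0.27 in both. *Acadl* (-0.23 and -0.30) and *Cpt1a* (-0.57 and -0.56), genes of fatty acid oxidation, had small negative values. Among 6 genes known to be induced by glucocorticoids, as *Klf15* is, 3 were lower and 1 higher in *Hmga2*+/+ MEF and 1 was lower and 1 higher in *Hmga2*-/- MEF, with medians of -0.57 and -0.37. *Sgk1* was higher in both (1.61 and 1.68). *Per1* (-0.78 and -0.57) and *Tsc22d3* (-0.81 and -0.54) were called lower in *Hmga2*+/+ MEF, and *Zbtb16* was called in both, from 16 and 1 reads and from 8 and 1 reads. *Fkbp5* had 0.25 and 0.48, and *Dusp1* had -0.35 and -0.20.

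**Figure D5:**
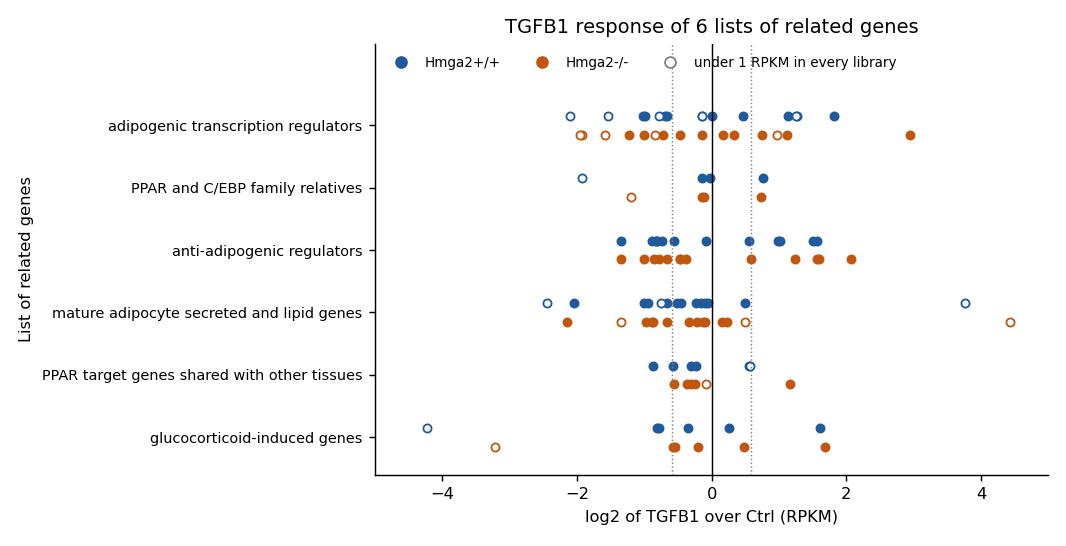
Log2 of the RPKM after TGFB1 over Ctrl for each gene of the 6 lists with enough reads, 1 point per gene in *Hmga2*+/+ (blue) and *Hmga2*-/- (orange) MEF, open where the gene was under 1 RPKM in every library, with dotted lines at 1.5-fold. Each of the 6 lists has genes on both sides of 0, and most PPAR target genes lie within the 1.5-fold lines.

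Between genotypes, 7 of the 47 list genes with at least 1 RPKM in a library (14.9%) were past the limit in the Ctrl libraries, where 1.64% of all such genes were called lower and 2.34% higher. *Plin4* (0.66), *Gata3* (0.67), *Hes1* (0.59) and *Dusp1* (0.69) were higher and *Dlk1* (-0.79), *Sox9* (-0.84) and *Ucp2* (-1.02) lower in *Hmga2*-/- MEF. Under TGFB1 4 of the 47 (8.51%) were past it, against 1.97% lower and 3.10% higher over all such genes. There *Egr2* (0.64), *Hes1* (0.69) and *Dusp1* (0.84) were higher and *Dlk1* (-0.62) was lower. At under 1 RPKM, *Nr1h3*, which codes for the sterol receptor LXR alpha, was higher in *Hmga2*-/- MEF under both treatments (1.23 and 1.18), from 64 against 27 and 36 against 16 reads. *Angptl4*, a PPAR target that inhibits lipoprotein lipase, was so as well (1.36 and 0.71), from 65 against 25 and 62 against 38 reads.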

How the data were processed

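Strand-specific total RNA-seq of 4 MEF libraries, 1 per condition, was analysed. Trimmomatic, HISAT2 2.1.0 (on mm10) and HOMER were used by the authors, who deposited RPKM values for 63759 UCSC known gene transcripts, per the file header over exons and by the study's methods over genes. The sources used here do not say if duplicates were pooled.

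Transcripts were named by at least 50% same-strand overlap with GENCODE vM21 genes (57708 named). The members, the lists and the tests were chosen with earlier results of these data known. Named genes were the 10 members, in each list the 4 with the highest mean RPKM and those past 1.5-fold with at least 1 RPKM, the 5 genes most like *Pparg* and *Cebpb*, and the checks *Hmga2*, *Smad7* and *Ccn2*. Some genes that meet this rule are not reported here. Other list genes under 1 RPKM were named after their values were seen.

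Mapped reads per library (56140000, 57300000, 56610000 and 56950000) were those at which low RPKM values give whole reads, within 0.1 for 100% of at least 1303 values. Reads so recovered gave exact 95% intervals (Poisson for a level, conditional binomial for a ratio, conditional odds ratio for a difference of responses), which cover counting error only. Fold changes are of RPKM without a pseudocount. The study's methods set 0 RPKM to 0.001, and here a library at 0 reads was set to 3 reads instead. Genes with 3 reads or fewer in both libraries were not compared. The steps were tested on simulated data. Python 3.11.15, numpy 2.4.6, pandas 2.3.3, scipy 1.17.1 and matplotlib 3.10.9 were used.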

Additional observations from a re-analysis of the deposited data

How the results depend on the processing

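With 1 library per condition, the spread between replicates is unknown, and depth limits *Cd36*, *Adipoq* and, in the *Hmga2*+/+ TGFB1 library, *Pparg* with 11 reads. No paired analysis was possible because each condition has 1 library. The alternatives were a pseudocount of 0.1 or 1 RPKM, median-ratio scaling, the transcript with the highest mean RPKM, a 2-fold limit and a minimum of 10 reads. Of 250 member changes under them, 217 kept their direction and side of the limit, 28 lost the call, 3 moved and 2 reversed. Many of the 217 could not differ, so their share does not measure robustness. The minimum of 10 reads alters no value, a gene with 1 transcript has no other, and a change under 1.5-fold cannot pass 2-fold. The 250 leave out *Cd36* under the minimum of 10 reads, where both its calls were lost. Called members then fell from 6 to 5 for TGFB1 in *Hmga2*+/+ and from 3 to 2 between genotypes in Ctrl.

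A pseudocount of 1 RPKM, which is above the level of most members, left 0 of 6 called members for TGFB1 in *Hmga2*+/+, 4 of 7 for TGFB1 in *Hmga2*-/-, 0 of 3 between genotypes in Ctrl and 0 of 2 under TGFB1. The 2-fold limit left 3, 4, 1 and 2. The 1 member called for a difference of responses, *Lpl*, was lost (0 called) under both pseudocounts, the rescaling, the other transcript and the 2-fold limit, and its log2 value turned to -0.13 with a pseudocount of 1 RPKM and to -0.25 with the other transcript. Leaving out the filter of 1 RPKM was tried for the background shares, which between genotypes in Ctrl were then 6.50% lower and 6.75% higher and under TGFB1 6.20% and 7.96%. It was not tried for the genes nearest in pattern.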
